A study of Arabidopsis thaliana with 2 samples.

Results

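The genes described here encode factors that build pre-ribosomes, the nucleolar particles in which ribosomal RNA is cut, folded and joined to ribosomal proteins. The list held 43 Arabidopsis thaliana genes, chosen by locus as members of the small-subunit processome, other small-subunit factors, pre-60S factors, nucleolins and related nucleolar proteins. Of these, 27 had a probe set that the array annotation pairs with exactly 1 gene, out of 13356 genes with such a probe set on the array. All 27 were above the floor of the measurement in control, and 26 were also above it in hypoxia. The other 16 genes had no single-gene probe set and were not analysed here. They were the nucleolin genes NUC-L1 and NUC-L2, NAF1, OLI2, EDA25, PUM24, PWP2, TOZ, SWA1, PUM23, EDA7, EMB2762, EMB2777, AT5G22100, AT3G11964 and AT1G31660.

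Ribosome assembly starts when RNA polymerase I transcribes a long precursor RNA in the nucleolus. The small-subunit processome, a large complex built around the U3 small nucleolar RNA, folds and cleaves the part that becomes 18S RNA, while pre-60S factors mature the part for the large subunit. Most of these factors leave the particle before it reaches the cytosol and are used again. Making ribosomes is among the largest energy costs of a cell, and in plants it is tied to growth through TOR kinase signalling. Roles below are those of the yeast counterparts unless a plant name is given, because the gene table gives most of these loci no symbol.

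The samples were mesophyll protoplasts, leaf cells without their walls, pooled from leaves of 36 plants (leaf positions given as the fifth and the sixth) and divided between a control and a hypoxia sample. The series was designed to find genes that low oxygen induces in these cells and to set them beside genes induced by KIN10, a subunit of the energy-sensing kinase SnRK1. No mutant, transgene or other agent is named in the labels for either sample. The control layer was 0.6 mm deep, made of 10 ml of mannitol buffer spread over a dish of 150 mm. The hypoxia layer was 25 mm deep, made of 2 ml of mannitol buffer standing inside a 15 ml tube. Cell number, light and the incubation of 6 h were equal. Oxygen, cell density and vessel therefore cannot be told apart. Each group had 1 array, so no difference below has a replicate check and no test was possible. A fall in signal from fewer cells of a kind and a fall in RNA per cell cannot be told apart in such bulk samples. Of the mesophyll markers, 1 of 7 had a single-gene probe set, RCA (rubisco activase), which read 35119 in control against 57111 in hypoxia. Guard cell markers were near the floor of 165.7, since FMA (FAMA) read 295 and 328 and AT1G22690 read 32.9 and 175. The phloem gene SWEET11 read 212 and 1020. Markers of epidermis and of dividing cells had 0 single-gene probe sets, so a part of such cells in these results was not tested.

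Pre-ribosome factors were lower in hypoxia almost throughout. Of 27 measured genes, 25 were at least 2-fold lower, 0 were at least 2-fold higher and 2 lay within 2-fold. Among all 7972 measured genes, 14.5% were at least 2-fold lower and 13% were at least 2-fold higher. Over the 27 genes the log2 ratio of hypoxia over control had a median of -1.67, a 3.18-fold difference, and over all measured genes it had a median of -0.07. A ratio below 0 was found for 26 of the 27 and for 52.9% of all measured genes. At least 4-fold lower were 10 of the 27, against 1.86% of all measured genes. Log2 ratios come from arrays scaled to a common median, with low values set to the floor.

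A narrower background is the genes of like signal in control. Control intensities of the 27 genes ran from 799 to 10722, with a median of 2635, and hypoxia intensities ran from 160 to 3874, with a median of 754. Among the 4135 genes whose control intensity lay in the same range, 20.3% were at least 2-fold lower, 3.24% were at least 4-fold lower, and the median log2 ratio was -0.29. Within the 27 genes, control level and log2 ratio had a Spearman correlation of -0.08, given as a description across genes that share the same 2 arrays.

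**Figure D1:**
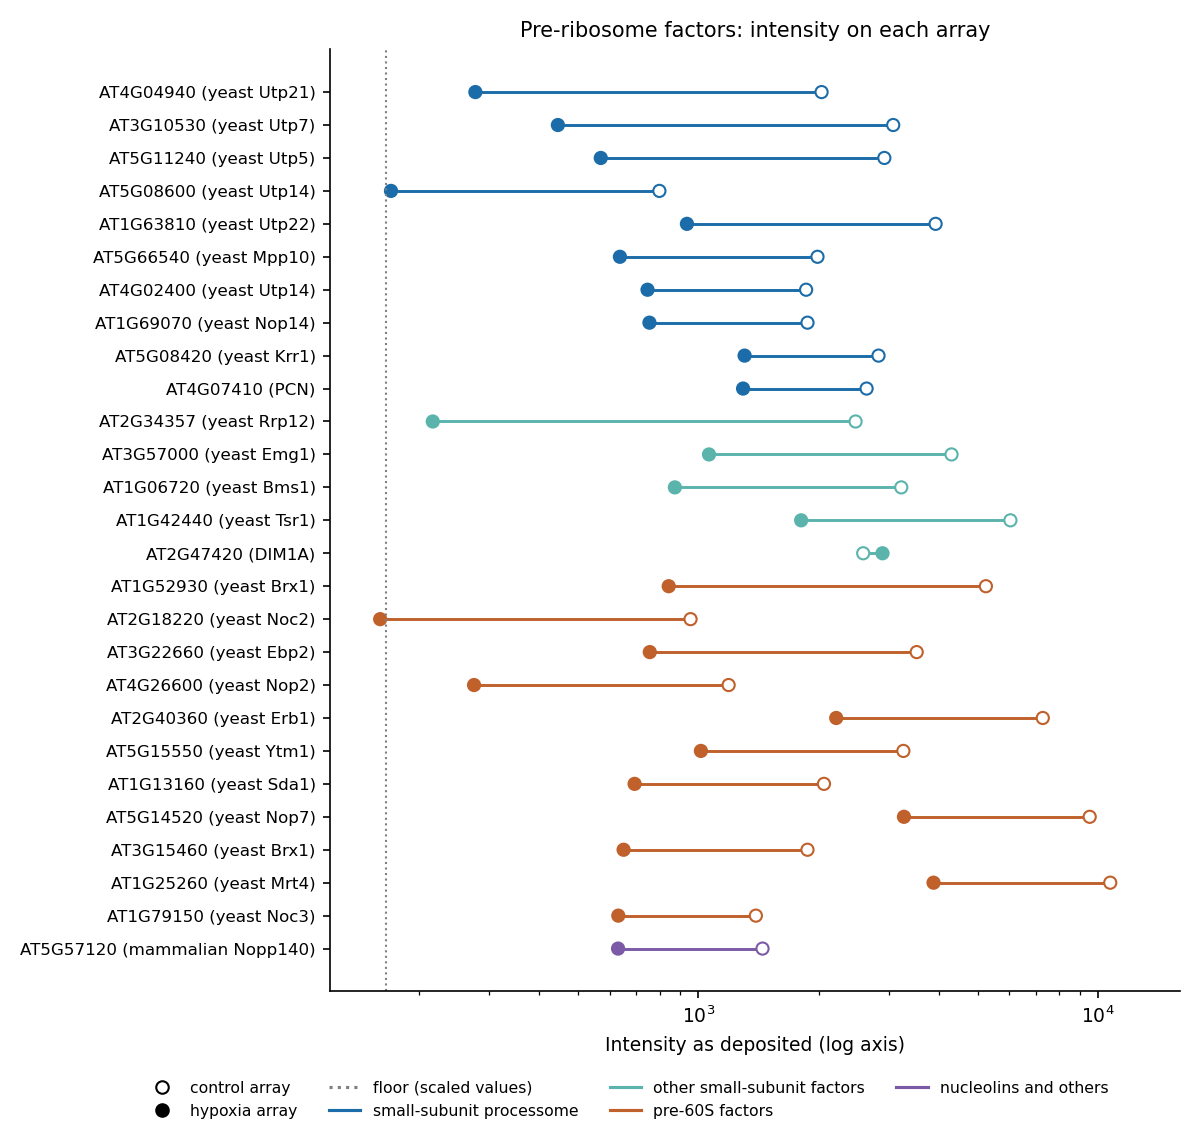
Deposited intensity (log axis) of the 27 measured pre-ribosome factors on the control array (open points) and the hypoxia array (filled points), coloured by role, with the floor of the scaled values as a dotted line. The filled point lies left of the open point for 26 genes, and DIM1A is the exception.

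The small-subunit processome had 10 measured genes, of which 9 were at least 2-fold lower. Their log2 ratios ran from -2.83 to -0.98 around a median of -1.81. In yeast, the Utp proteins with WD40 repeats join the precursor RNA early. AT4G04940, the counterpart of Utp21, read 2033 in control and 277 in hypoxia. Its log2 ratio of -2.83 placed it at rank 21 from the lowest of all measured genes. With the floor raised to the 60th percentile of all values the ratio came to -1.57. AT3G10530, the counterpart of Utp7, read 3071 and 445, a log2 ratio of -2.74 at rank 28. AT5G11240, related to Utp5, read 2918 and 570, a log2 ratio of -2.31. All 3 lost at least 4-fold of their signal in the main setting. PCN (POPCORN), a WD40 gene needed for embryo and shoot patterning in Arabidopsis and the counterpart of Utp4, read 2635 and 1293. Its log2 ratio of -0.98, a 1.97-fold difference, left it just within 2-fold, the only processome gene measured there.

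Other processome genes lay between these values. AT1G63810, the counterpart of Utp22, part of a processome subcomplex, read 3920 and 936, a log2 ratio of -2.02. AT5G66540 encodes the counterpart of Mpp10, a scaffold bound to U3. It read 1986 and 636, a log2 ratio of -1.60. AT1G69070, the counterpart of the scaffold protein Nop14, read 1874 and 754, a log2 ratio of -1.27. AT5G08420, a KH-domain RNA-binding gene related to Krr1, read 2822 and 1305. With a log2 ratio of -1.07 it stood just past 2-fold, and it came within 2-fold in 3 of 12 processing alternatives.

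A pair of processome genes both encode counterparts of Utp14, the protein that in yeast activates the helicase releasing U3. AT4G02400 read 1860 and 746, a log2 ratio of -1.27, while AT5G08600 read 799 and 170.2, a log2 ratio of -2.18. Both were lower in hypoxia, by ratios that differed by 0.91 on the log2 scale. AT5G08600 in hypoxia lay just above the floor, and with the floor raised to the 60th percentile of all values its ratio shrank to -0.22 and the order of the pair turned.

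Among other small-subunit factors, 4 of 5 measured genes were at least 2-fold lower, and the median was a log2 ratio of -1.83. AT2G34357, an ARM-repeat gene related to Rrp12, which in yeast helps to export and mature the pre-40S particle, read 2473 and 216.5. Its log2 ratio of -3.47, an 11.1-fold difference, was at rank 3 from the lowest of all measured genes and was the lowest of the 27. The hypoxia reading was not far above the floor of 165.7. With the floor at the 60th percentile the ratio came to -1.85, and AT1G52930 at -2.59 was then lower. AT3G57000, the counterpart of Emg1, a methyltransferase for 18S RNA, read 4297 and 1063, a log2 ratio of -1.97. The pair of related GTPase-like genes AT1G06720 (Bms1) and AT1G42440 (Tsr1) lay close together. AT1G06720 read 3217 and 873, a log2 ratio of -1.83. AT1G42440 read 6033 and 1807, a log2 ratio of -1.69.

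DIM1A was the only one of the 27 genes that was not lower on the hypoxia array. It encodes an adenosine dimethyl transferase, which in Arabidopsis methylates adenosines near the end of 18S RNA. It read 2584 in control and 2887 in hypoxia, which gives a log2 ratio of 0.21. The direction turned to -0.29 when arrays were centred on the hybridisation controls. DIM1B, a gene of the same family outside the list of 43 and named after its values were seen, read 635 and 481. Its log2 ratio of -0.35 also lay within 2-fold. Whether DIM1B acts on the same RNA as DIM1A was not tested.

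Pre-60S factors had 11 measured genes, and all 11 were at least 2-fold lower. Their log2 ratios ran from -2.59 to -1.10 around a median of -1.64. The PeBoW complex, in which Pescadillo, Bop1 and Wdr12 act together in large-subunit maturation, had all 3 of its genes measured. PES (PESCADILLO) read 9525 and 3267, a log2 ratio of -1.50. AT2G40360, the Bop1 gene, known as Erb1 in yeast, read 7269 and 2212, a log2 ratio of -1.67. AT5G15550, the Wdr12 gene, known as Ytm1 in yeast, read 3256 and 1014, a log2 ratio of -1.64. The ratios of the 3 partners, from -1.67 to -1.50, lay closer together than the probe set SD of 0.34. This closeness was not particular to the complex, since -1.67 was also the median of all 27 genes. AT5G66540 at -1.60 and AT1G13160 at -1.53, outside the complex, lay in the same range. That SD comes from 74 genes with a pair of probe sets, and it covers differences between probes, not between cells.

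The Noc proteins escort the large-subunit precursor from the nucleolus to the nucleoplasm. AT2G18220, the counterpart of Noc2, read 956 in control and 160 in hypoxia, where it was at the floor, so it was at least 5.68-fold lower. That bound came to a log2 ratio of -0.48 with the floor at the 60th percentile. AT1G79150, the counterpart of Noc3, was the only one of the 27 with more than 1 probe set. Its brighter probe set by mean log2 intensity read 1392 and 630, a log2 ratio of -1.10. Its other probe set read 1467 and 411, a log2 ratio of -1.79. The probe sets of this gene thus differed by 0.69, with the same direction in both.

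Brx1 acts in the processing of large-subunit RNA, and Arabidopsis has a pair of genes for it. AT1G52930 read 5238 and 843, a log2 ratio of -2.59, and stood at rank 39 from the lowest. AT3G15460 read 1874 and 650, a log2 ratio of -1.48. The difference within the pair was 1.11 on the log2 scale, and it stayed between 1.11 and 1.23 over 12 alternatives. Of the 74 genes with a pair of probe sets, 1 showed a larger difference between its own probe sets. For the Utp14 pair, at 0.91, 4 of the 74 did, and for the probe sets of AT1G79150, at 0.69, 12 did. These counts describe probes, not cells, and are no test of a difference between genes. Whether either probe set also binds the transcript of the other gene was not tested.

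Further pre-60S genes were lower by 2.68-fold to 4.50-fold. AT3G22660, the counterpart of Ebp2, a partner of Brx1 in yeast, read 3516 and 756, a log2 ratio of -2.17. AT4G26600, one of the Arabidopsis counterparts of Nop2, a methyltransferase for large-subunit RNA, read 1190 and 275, a log2 ratio of -2.07. Its paralogue OLI2 was not analysed here. AT1G13160, the counterpart of the export factor Sda1, read 2061 and 692, a log2 ratio of -1.53. AT1G25260 encodes the counterpart of Mrt4, which holds the place of the stalk base protein in the pre-60S particle. It read 10722 and 3874, a log2 ratio of -1.42.

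Of the nucleolins and other nucleolar proteins, only AT5G57120 was measured, a gene related to the mammalian phosphoprotein Nopp140, which shuttles between nucleolus and coiled bodies. It read 1447 and 630, a log2 ratio of -1.15. This gene was at least 2-fold lower in 9 of 12 alternatives.

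**Figure D2:**
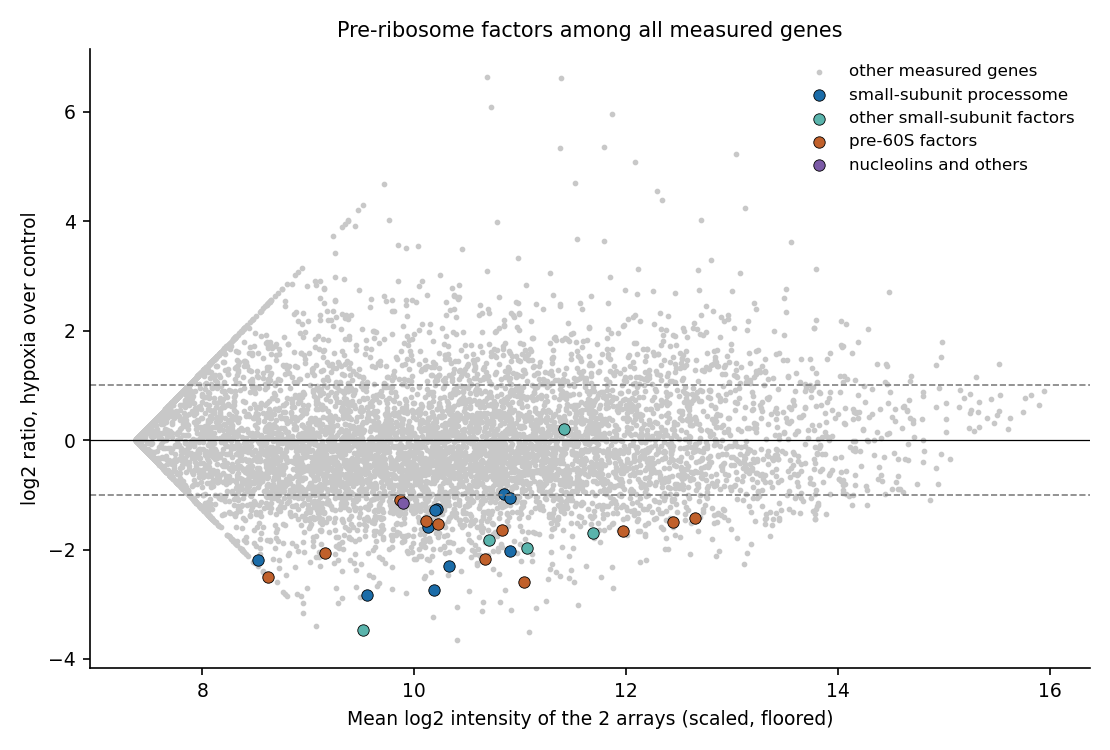
Log2 ratio of hypoxia over control against the mean log2 intensity of both arrays (scaled and floored) for 7972 measured genes, with the pre-ribosome factors coloured by role and dashed lines at 2-fold. The coloured points gather below the lower dashed line across the whole range of levels that they cover.

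The 27 genes were less spread than genes at large. Their interquartile range was 0.83 on the log2 scale, against 1.16 for all measured genes. A narrow spread was not particular to them. Of the neighbouring lists described below, further assembly factors (quartiles -1.63 and -1.05), ribosomal proteins (-1.53 and -0.96) and RNA polymerase I (-1.41 and -1.28) were narrower. Helicases (-1.83 and -0.91) and small nucleolar ribonucleoproteins (-2.23 and -1.11) were wider. In the lowest 10% of all log2 ratios lay 22 of the 27 genes, and 26 were below -0.66, the lower quartile of all measured genes. On both arrays 6648 genes exceeded the floor, 26 of them pre-ribosome factors. Of the 100 lowest ratios among the 6648, 7 were these factors, which is 7% of the 100 and 26.9% of the 26. Among the 500 lowest, 19 were, or 3.8% of the 500 and 73.1% of the 26.

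The genes were spread over the genome. By locus name the 27 genes lay on chromosomes 1 to 5, with 8, 4, 4, 4 and 7 genes. The median log2 ratio per chromosome ran from -2.09 on chromosome 2 to -1.60 on chromosome 5. Every chromosome held genes at least 2-fold lower, and the highest ratio on chromosomes 1, 3 and 5 was -1.10, -1.48 and -1.07.

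How far each gene was lower depended on the scaling between arrays, as the plot of ranges over alternatives shows. All 18 hybridisation control probe sets, which report RNA added at hybridisation, read higher on the hypoxia array, by a median of 0.50 on the log2 scale. The 3 reference genes with a probe set had a median of -0.61. Centring the arrays on these reference genes moved the median of all genes by 0.48, and centring on hybridisation controls moved it by -0.48. Genes clear of the floor moved by 0.61 and -0.50. With reference gene centring, 15 of 27 factors were at least 2-fold lower, beside 4.31% of all measured genes, and with hybridisation control centring 26 were, beside 31% of all. Measured from the median of all genes, the median of the factors stood 1.60 lower in the main setting. That distance was 1.47 with reference gene centring and 1.63 with hybridisation control centring, on the log2 scale.

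**Figure D3:**
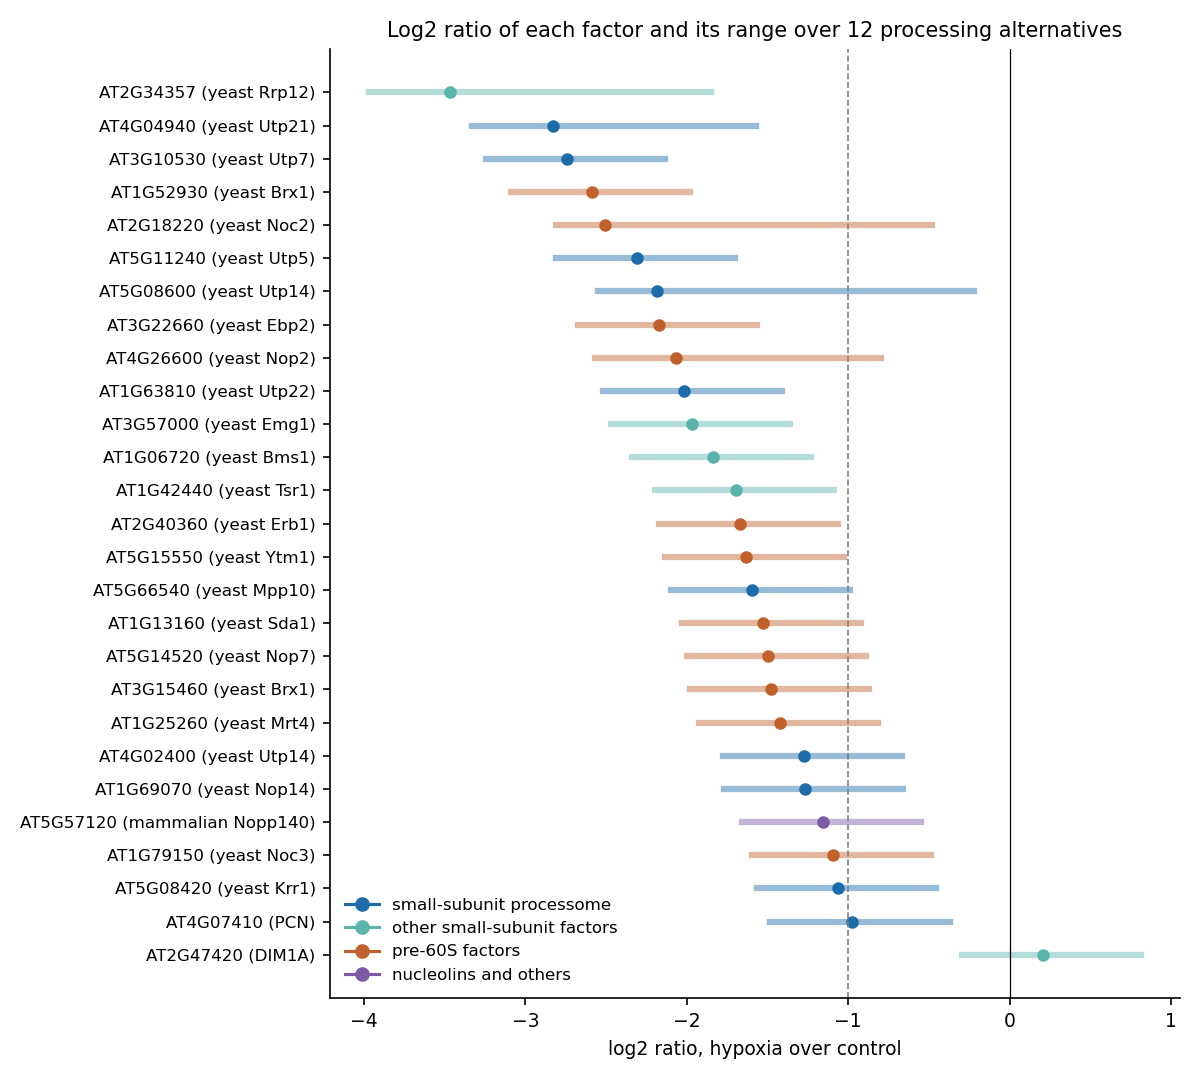
Log2 ratio of hypoxia over control for each of the 27 factors in the main setting (points) and its lowest to highest value over 12 processing alternatives (bars), coloured by role, with a dashed line at 2-fold lower. The bars of 12 genes stay left of the dashed line, and 26 bars stay below 0.

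The genes past 2-fold under every alternative served both subunits. At least 2-fold lower in all 12 alternatives were 12 factors: AT4G04940, AT3G10530, AT5G11240, AT1G63810, AT2G34357, AT3G57000, AT1G06720, AT1G42440, AT1G52930, AT2G40360, AT5G15550 and AT3G22660. All the others but DIM1A had a ratio below 0 in every alternative in which they were measured. Some alternatives changed only the choice of probe sets and left most or all of these ratios as they were.

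Other genes of the same pathway were lower as well. The lists used here and below were chosen with earlier results of these data known, so they are not independent support. Of a list of 36 further assembly factors, 19 were measured, 14 were at least 2-fold lower and 0 were at least 2-fold higher. The median was a log2 ratio of -1.31. The strongest were AT5G14050, the counterpart of the processome protein Utp18, from 2002 to 390 at -2.31, and AT3G21540, the counterpart of Utp12, from 2097 to 489 at -2.05. AT1G23280, the counterpart of the pre-60S protein Mak16, went from 1764 to 427, and AT3G23620, the counterpart of Rpf2, had -1.86. The pre-ribosome factors and these further factors thus lay on the same side, with medians of -1.67 and -1.31. The difference between the lists was not tested, because genes are not replicates.

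Nucleolar DEAD-box helicases, which unwind RNA within the same particles, had 11 measured genes of 14. Of these, 7 were at least 2-fold lower and 0 at least 2-fold higher, and the median was -1.53. AT3G18600 went from 6429 to 1108, a log2 ratio of -2.49. AT5G60990 had -1.97, AT3G09720 (RH57) had -1.84 and AT1G77030 had -1.83. The 4 that lay within 2-fold were AT5G05450 at -0.92, AT3G16840 at -0.90, PRH75 at -0.70 and AT5G65900 at -0.64, named after their values were seen.

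Core proteins of small nucleolar ribonucleoproteins, the particles that guide RNA modification and include U3, had 7 measured genes of 13. At least 2-fold lower were 5 and at least 2-fold higher were 0, and the median was -1.49. AT3G05060, of the Nop58 type, read 4222 and 750, a log2 ratio of -2.45. AT4G12600, of the Snu13 type, had -2.23, AT5G08180, of the Nhp2 type, had -1.49, and AT3G03920, of the Gar1 type, had -1.46. AT3G12860, related to Nop56, was at the floor in hypoxia and at least 4.66-fold lower. The 2 genes within 2-fold, AT4G22380 at 0.11 and AT5G20160 at -0.76, and AT3G12860 are named after their values were seen.

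RNA polymerase I, which makes the precursor RNA, had 5 measured subunit genes of 9 genes listed, and 4 were at least 2-fold lower, 0 at least 2-fold higher. The median log2 ratio was -1.30. AT3G25940 went from 1875 to 384, a log2 ratio of -2.24. AT1G75670 had -1.41, AT3G13940 had -1.30 and NRPA2, the second largest subunit, had -1.28. NRPA1, the largest subunit, went from 2488 to 1426, a log2 ratio of -0.76, and was within 2-fold.

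Of the TOR kinase and ribosome stress genes, 2 of 8 were measured. RAPTOR1 and RAPTOR2, which encode the partner protein of TOR kinase, had log2 ratios of 0.33 and -0.33. Both were within 2-fold, and TOR itself was not analysed here.

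Ribosomal proteins are the parts that these factors assemble. Of 39 listed genes for cytosolic ribosomal proteins, 12 were measured, 8 were at least 2-fold lower and 0 at least 2-fold higher, and the median was -1.19. AT5G39850 and AT4G10450 had -3.02 and -2.08, and the pair of related genes AT4G17390 and AT4G16720 had -1.43 and -1.36. AT5G59240, named after its values were seen, read 600 in control and was at the floor in hypoxia, so it was at least 3.56-fold lower. At least 4-fold lower were 2 of these 12 genes, or 16.7%, beside 10 of the 27 pre-ribosome factors, or 37%. Lowering the floor to the 20th percentile took AT5G59240 past 4-fold too, which made 3 of 12 beside 10 of 27. Raising it to the 60th percentile left almost no contrast, at 2 of 11 (18.2%) beside 5 of 27 (18.5%). Reference gene centring gave 1 of 12 (8.33%) beside 3 of 27 (11.1%). Hybridisation control centring gave 3 of 12 (25%) beside 17 of 27 (63%). The size of this contrast thus depended on the processing. Signal level differed too, with a median control intensity of 23200 for the ribosomal protein genes against 2635 for the pre-ribosome factors. Scaling that varies with level moved the ribosomal protein median to -1.39 (quantile normalization, 12 of 12 at least 2-fold lower) and -1.31 (loess, 11 of 12). Further assembly factors then had -1.26 and -1.20, so the order of these lists turned.

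**Figure D4:**
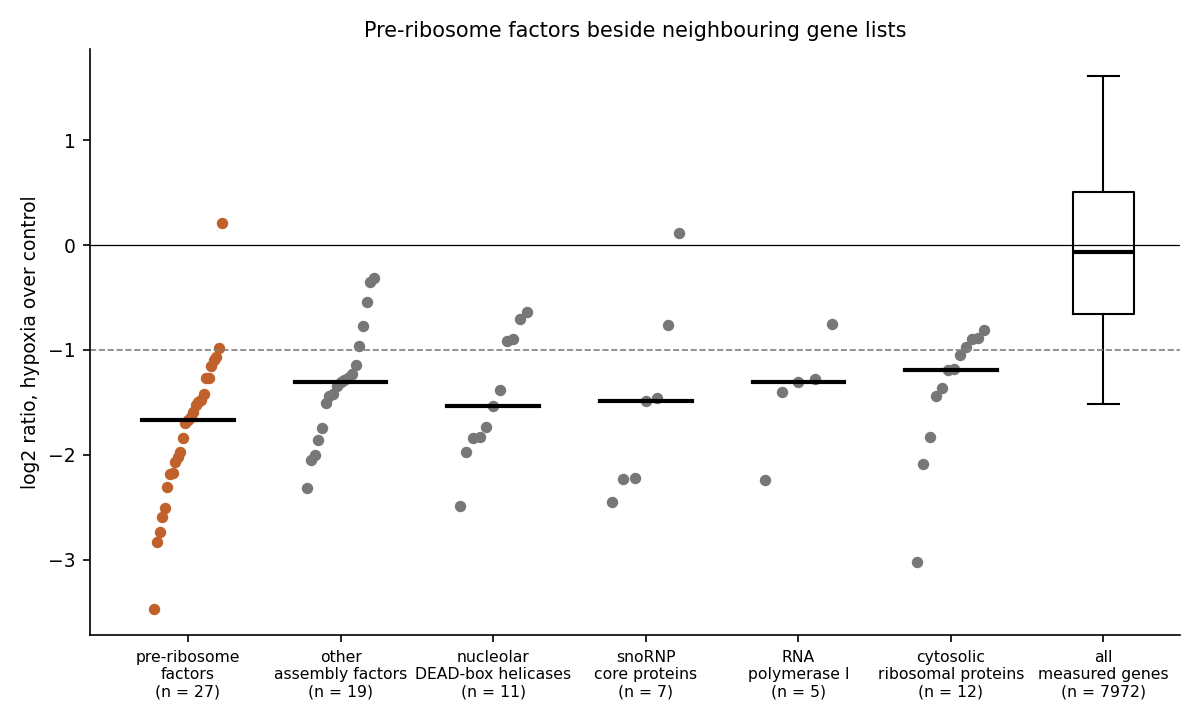
Log2 ratio of hypoxia over control for each measured gene (points) of the pre-ribosome factors and 5 neighbouring lists, with medians as black bars, beside a box of all 7972 measured genes (median, quartiles and whiskers at the 5th and 95th percentiles). In the main setting shown, all list medians lie below the dashed line at 2-fold lower, from -1.67 for the pre-ribosome factors to -1.19 for cytosolic ribosomal proteins. The order of the lists depends on the scaling.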

How the data were processed

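RNA of 1 control and 1 hypoxia sample was labelled with biotin and hybridised to an Affymetrix expression array. Per probe set and array, the deposited table holds a linear intensity, which the authors had scaled to a trimmed mean of 1500.1 per array. The submitters' processing notes name GCOS 1.0. Settings, detection calls and a genome build are not given in the sources used here. Of 22746 probe sets other than controls, 13513 were paired with 1 gene, 503 with several and 8730 with none. Symbols came from a RefSeq table of TAIR10.1 that matched 13436 single-gene probe sets.

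Arrays were scaled to a common median. Scaled values below 165.7, their 40th percentile over both arrays, were set to that floor, and log2 ratios of hypoxia over control were taken (Python 3.11.15, numpy 2.4.6, pandas 2.3.3). A gene was measured if above the floor on at least 1 array. Where a gene had several probe sets, the brightest by mean log2 intensity stood for it. The steps were tested on simulated data. Printed intensities are as deposited. With 1 array per group, counts past 2-fold replace a test, and the number of arrays limits the precision.

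The 43 genes and all lists were chosen with earlier results of these data known. The lists covered further assembly factors, helicases, small nucleolar ribonucleoproteins, RNA polymerase I, TOR and ribosome stress, ribosomal proteins and cell type markers. Named were all 43 genes, up to 4 genes with the largest absolute ratio per list among those above the floor on both arrays, and every measured gene of lists of 10 or fewer. Alternatives changed the scaling, the floor, the measured rule or the probe set of a gene. Promoter motifs and protein identities were not analysed here.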

Additional observations from a re-analysis of the deposited data

Results flagged for a closer look

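The array carries manufacturer's probe sets for ribosomal RNA, which entered no comparison. The probe set for 5S ribosomal RNA, the small RNA that joins the pre-60S particle, read 260.0 in control and 3085 in hypoxia. After scaling it was 12.3-fold higher. The control reading was not far above the floor of 165.7, and whether this signal follows the amount of 5S RNA was not tested. This probe set was picked out because, outside the comparison, it read higher in hypoxia than in control. The probe set for 25S ribosomal RNA was under the floor on both arrays, at 107 and 99.0. Outliers within a group were not looked for, since each group had 1 array.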

How the results depend on the processing

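The count of factors at least 2-fold lower, 25 of 27, went to 15 with reference gene centring and stayed within 22 to 26 under the other 11 alternatives. Not all of these could move the factors. Keeping only gene-specific probe sets, or adding multi-gene ones, left every factor's ratio unchanged. Averaging probe sets could change only AT1G79150. Counts out of 12 alternatives therefore include some that could not differ from the main setting. Their median log2 ratio of -1.67 went to -1.06 with reference gene centring and to -2.17 with hybridisation control centring. These centrings moved every gene clear of the floor alike, by 0.61 and -0.50, and the floored median of all genes by 0.48 and -0.48. The count at least 2-fold higher was 0 under all 12. Among all measured genes past 2-fold, 52.7% were lower in the main setting, 14.6% with reference gene centring and 82.3% with hybridisation control centring. The medians of the 5 neighbouring lists with at least 3 measured genes were below 0 under all 12, between -2.03 and -0.58. Their counts at least 2-fold lower ran from 5 to 17 for further assembly factors, 5 to 11 for helicases, 3 to 6 for small nucleolar ribonucleoproteins, 1 to 5 for RNA polymerase I and 3 to 12 for ribosomal proteins. The floor at the 60th percentile put 11 factors at the floor on 1 array, so dim signal limits AT2G18220, AT5G08600 and AT4G26600, which came within 2-fold there. No paired analysis was possible because each group had 1 array, and leaving out a replicate was likewise not run.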
